A study of Danio rerio with 18 samples.

Results

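The genes described here encode the protein subunits of the mitochondrial respiratory chain in the regenerating heart of zebrafish, together with some of the factors that assemble them. They were chosen by symbol alone, as the genes whose symbols begin with nduf, sdha to sdhd, uqcr, cox4 to cox8 or atp5, and 96 of the 15268 genes in the table matched. Of these, 84 are structural subunits of complexes I to V (36, 5, 8, 18 and 17 genes), and ndufa4 and its duplicate are counted with complex IV. Another 8 are assembly factors of complexes I and II, and cox7a3 is a RefSeq synonym of cox7a2l, a factor that joins complexes III and IV into supercomplexes. The remaining 3 are the ATP synthase inhibitors atp5if1a and atp5if1b and the gene atp5s, which lies outside the complexes. Every one of the 96 symbols matched a RefSeq name, 92 as the current symbol and 4 as a synonym. RNA was sequenced from heart tissue of TAB fish, a cross of the AB and Tubingen strains, regrowing after the apex of the ventricle was removed, on day 0, 6 or 9 post amputation (dpa), with 2 libraries per time point. The age of the fish and the number of animals behind a library are not given in the sources used here. The study describes the libraries of a time point as biological replicates, and p-values measure the spread between them. The libraries of histone ChIP and of the PAC2 fibroblast line in the same series were not analysed here.

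The respiratory chain passes electrons from NADH through complex I, and from succinate through complex II, to ubiquinone, then through complex III and cytochrome c to complex IV, which reduces oxygen. Complexes I, III and IV pump protons across the inner mitochondrial membrane, and complex V, the ATP synthase, uses the resulting gradient to make ATP. The heart is among the tissues richest in these complexes, because cardiomyocytes draw most of their ATP from oxidation. Most subunits are encoded in the nucleus, and complexes I, III, IV and V also hold subunits of the mitochondrial genome. Of 13 such genes searched by symbol, 0 are in the table, so they could not be analysed here.

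Expression is given as FPKM, a count of sequenced fragments scaled by transcript length and by the mapped fragments of the library, which allows levels of different genes to be compared. Where 2 values stand before a time point, they belong to replicates 1 and 2. The number of reads behind a value is not known, so no counting interval is given. The FPKM of all genes summed to between 803421 and 1330110 per library, highest in 0 dpa replicate 1. Of 29 listed genes of working heart muscle, 20 are in the table, and they differed widely in level. Myl7 lay between 13278 and 30405 FPKM over the libraries, and myoz2a, the lowest, between 4.28 and 13.3. The libraries of 0 dpa stood apart from each other: the 23 fitted genes of macrophages and neutrophils were all higher in replicate 2 (median difference 2.84 on the log2 scale), and the 20 genes of working myocardium were all lower in it (median difference -0.89). The 10 fitted skin genes had a median difference of 3.59 between replicates 2 and 1 of 6 dpa. For the members, the complexes and the main lists, results against 0 dpa are therefore given also without each 0 dpa library.

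Subunit genes were expressed at high levels, and the complexes differed in level. The median of the mean FPKM over the 6 libraries was 1562 for complex V, 1403 for complex IV, 679.9 for complex III, 409 for complex I and 311 for complex II. In each library the medians of the complexes stood in the same order, except in 9 dpa replicate 1, where complex IV (10.79 on the log2 scale of FPKM + 1) lay above complex V (10.72). In complex I the means ran from 75.1 for ndufa1 to 854 for ndufs5, in complex III from 126 for uqcrc2a to 1760.5 for uqcrb, and in complex V from 279 for atp5pf to 3189 for atp5f1b, the catalytic beta subunit. Complexes II and IV each held a gene far below the rest, sdhda with a mean of 8.93 and cox4i2 with 35.7, while cox6a2 had the highest mean of all members with 3695. Only ndufs8b was at 0, in all 6 libraries, while its duplicate ndufs8a, a core subunit of complex I, had an FPKM between 335 and 714.

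**Figure D1:**
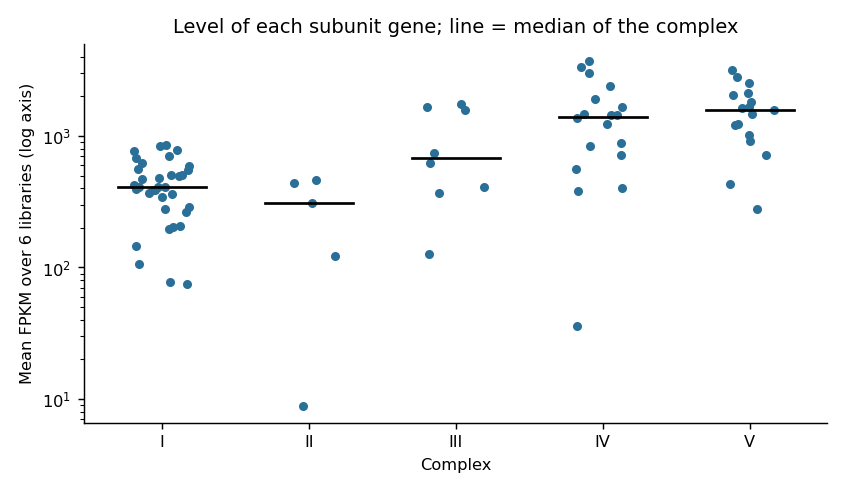
Mean FPKM over the 6 libraries of each subunit gene, on a logarithmic axis, by complex, 1 point per gene, with the median of the complex as a line; ndufs8b, at 0 in all libraries, is not drawn. The medians of complexes IV and V (1403 and 1562) lie above those of complexes I and II (409 and 311), and sdhda and cox4i2 are the lowest points of their complexes.

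The summed FPKM of the 96 genes was 113095 and 63808 (0 dpa), 59343 and 58079 (6 dpa), and 94242 and 86746 (9 dpa). Both libraries of 6 dpa thus lay below the other 4, and both libraries of 9 dpa lay between the libraries of 0 dpa. As a mean, the sum was 88451 ± 34851 (SD, n = 2) in the tissue of 0 dpa, 58711 ± 894 in that of 6 dpa and 90494 ± 5301 in that of 9 dpa. The sum at 9 dpa was 1.54 times that at 6 dpa, and the ratio of single libraries ran from 1.46 to 1.62. The same ratio was 1.49 for complex I, 1.56 for complex II, 1.57 for complex III, 1.64 for complex IV and 1.49 for complex V. Between 9 and 0 dpa the ratios of the complexes lay between 0.980 and 1.06, and for all members the ratio of single libraries ran from 0.767 to 1.48. As a share of the summed FPKM of all genes, the 96 genes held 8.50% and 6.98% (0 dpa), 7.04% and 7.23% (6 dpa), and 8.92% and 9.05% (9 dpa). On this scale 0 dpa replicate 2 lay with the libraries of 6 dpa, and the shares at 0 and 6 dpa overlapped, whereas both shares at 9 dpa were above all others.

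**Figure D2:**
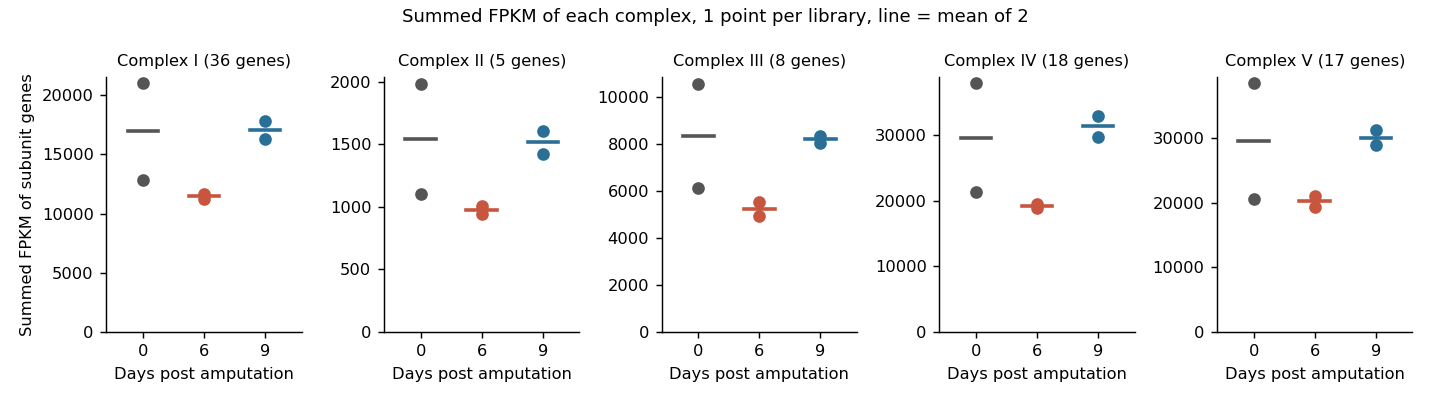
Summed FPKM of the structural subunit genes of each complex (vertical axis, from 0) by days post amputation, with 1 point per library and the mean of the 2 libraries as a line. In all 5 panels both points of 9 dpa lie above both points of 6 dpa, and the points of 0 dpa lie far apart, for complex IV at 37932 and 21331.

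Differences between time points were then tested gene by gene with limma, on log2(FPKM + 1), over all genes whose mean FPKM reached 3 at some time point. All 95 members other than ndufs8b entered the fit. A gene was called when it met the 3 criteria used in the study, which are P under 0.05 before adjustment, a fold change of 1.5 or more, and a mean FPKM of 3 or more in a group of the comparison. At 6 against 0 dpa the median log2 fold change of the members was -0.55, against -0.003 over all genes tested, and 90 of 95 members had a negative value. The criteria were met as lower by 7 members, where 7.51% of all genes were called lower, and as higher by 1 member, where 7.86% were called higher. The count of 7 is thus close to that share of all genes. The libraries did not overlap, with 6 dpa lower, for 56 of 95 members, while such genes made up 22.8% of all genes, and 2 members (cox4i2 and ndufaf7) did not overlap with 6 dpa higher, against 22.9% of all genes. This comparison rested on the libraries of 0 dpa. Without replicate 1 of 0 dpa the median was -0.15, against 0.08 over all genes, and 73 of 95 members had a negative value. Without replicate 2 the median was -0.94, against -0.11 over all genes, and 92 members had a negative value. By complex, the medians lay between -0.20 and 0.03 without replicate 1 and between -0.99 and -0.93 without replicate 2. Most of the calls were lost when any 1 library of 6 or 9 dpa was left out. The comparison also depended on the scaling. With median-ratio scaling 30 members were called lower, the members' median was -0.59 and that of all genes -0.04. Shares of all genes called under other scalings are not given here. When haemoglobin genes were removed and the libraries rescaled, 1 member was called lower and 2 higher. This moved the members' median to -0.22 and that of all genes to 0.31. The difference of the members from all genes was then -0.53, against -0.55 as deposited.

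At 9 against 6 dpa the median was 0.56, against -0.01 over all genes, and 93 of 95 members had a positive value, the exceptions being cox4i2 and ndufaf7. The libraries did not overlap, with 9 dpa higher, for 87 of 95 members, where 18.4% of all genes did so, and 0 members lay fully lower at 9 dpa, where 18.1% of all genes did. In the test, whose spread is shared with the libraries of 0 dpa, 7 members were called higher, where 1.99% of all genes were, and 0 lower, where 1.42% were. With any 1 library left out the median stayed between 0.52 and 0.63, and that of all genes between -0.09 and 0.07. Which members were called depended on the library left out. When the 0 dpa libraries were kept out of the fit altogether, 39 members were called higher, and with median-ratio scaling 28. Rescaling without haemoglobin gave 7, with a median of 0.41 against -0.17 over all genes. Scaling to the myocardium list, described below, gave 0, with 67 members positive and 28 negative. Shares of all genes called under these settings are not given here.

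At 9 against 0 dpa the median was 0.05, against -0.03 over all genes, and 56 members had a positive and 39 a negative value. The criteria were met by 1 member as higher and by 0 as lower, where 6.82 and 5.72% of all genes were called. The libraries of 9 and 0 dpa did not overlap for 5 members with 9 dpa higher (cox4i2, cox6b1, ndufv1, sdhda and uqcrc2a) and for 3 with 9 dpa lower (atp5if1a, cox7a2a and sdhdb), against 20.2 and 20.9% of all genes. Without replicate 1 of 0 dpa the median was 0.40, against 0.09 over all genes, and 89 members had a positive value. Without replicate 2 it was -0.36, against -0.14 over all genes, and 85 members had a negative value. The direction thus depended on which of these libraries was used. By complex, the medians lay between 0.21 and 0.54 without replicate 1 and between -0.42 and -0.26 without replicate 2. Without 6 dpa replicate 2 or either library of 9 dpa, 0 members were called. After Benjamini-Hochberg adjustment of the limma p-values over all genes, 0 members lay under 0.05 in any of the 3 comparisons. At 6 against 0, 9 against 0 and 9 against 6 dpa, 0.712, 0.366 and 0.0328% of all genes did so and met the criteria. At an unadjusted limma P value under 0.05 the counts of members were 8, 1 and 7 of 95. Over all genes tested they were 1440 of 9275, 1152 of 9015 and 320 of 9157. For 54 of 95 members both libraries of 6 dpa lay below the other 4 libraries, where 8.49% of all fitted genes did so. The 3 comparisons share libraries and are not independent of each other.

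**Figure D3:**
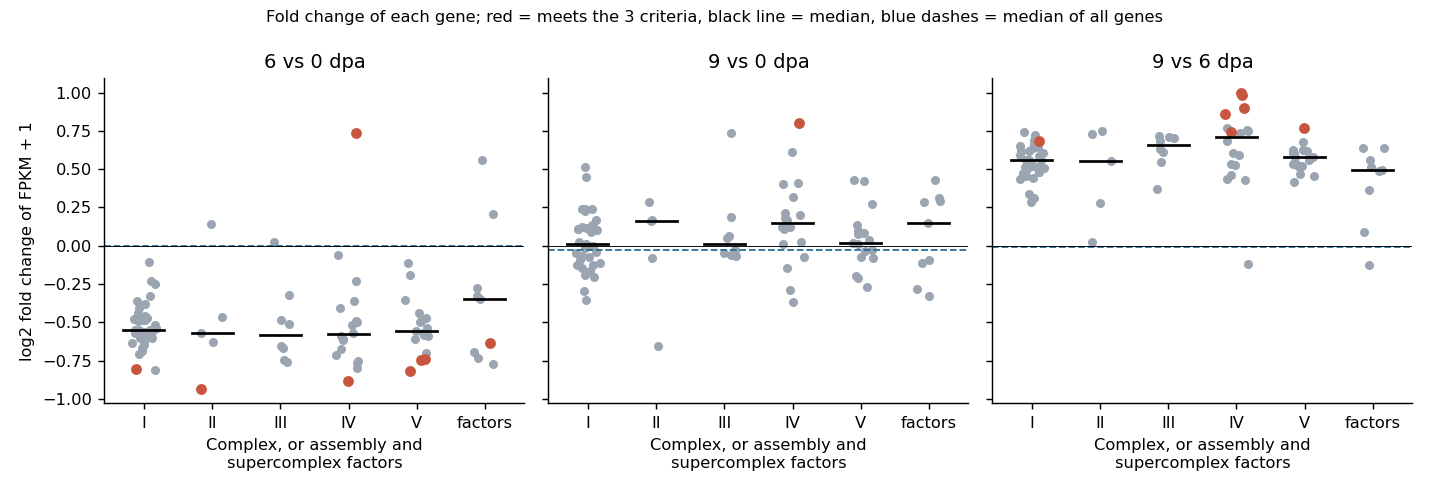
Log2 fold change of FPKM + 1 for each fitted subunit gene in the 3 comparisons (panels), by complex. The 9 assembly and supercomplex factors stand at the right of each panel, and atp5if1a, atp5if1b and atp5s are not drawn. Red points met the 3 criteria, black lines are medians and the blue dashes mark the median of all genes. Medians of the complexes lie between -0.58 and -0.55 at 6 against 0 dpa and between 0.55 and 0.71 at 9 against 6 dpa.

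Complex I takes electrons from NADH in its matrix arm and pumps protons in its membrane arm. All 35 of its fitted subunit genes had negative values at 6 against 0 dpa (median -0.55) and positive values at 9 against 6 dpa (median 0.56), where 34 of them did not overlap between libraries. Without 0 dpa replicate 1, 7 of the 35 had positive values at 6 against 0 dpa (median -0.17), among them ndufs1 (0.38) and ndufv1 (0.25), and without replicate 2 all 35 were negative (median -0.93). Ndufs5, an accessory subunit of the membrane arm and the most abundant of the complex, had FPKM values of 1029 and 797 (0 dpa), 627 and 635 (6 dpa), and 977 and 1057 (9 dpa). It was lowest in the libraries of 6 dpa, and its log2 fold change at 9 against 6 dpa of 0.69 (standard error 0.28, limma adjusted p = 1.00) met the 3 criteria, but not without either library of 6 dpa (0.68 and 0.70) or either library of 9 dpa (0.74 and 0.63). Ndufs4, an accessory subunit of the matrix arm, had 604 and 398 (0 dpa), 257 and 304 (6 dpa), and 447 and 427 (9 dpa). Its log2 fold change at 6 against 0 dpa was -0.81 (standard error 0.32, limma adjusted p = 0.282), and it was the only subunit gene of complex I called in that comparison, though not without 0 dpa replicate 1 (-0.51), either library of 6 dpa (-0.69 and -0.93) or either library of 9 dpa (-0.81).

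The core subunits of complex I, which hold the redox centres, had positive values at 9 against 0 dpa in 7 of 7 genes measured above 0 (median 0.24). Of the 28 accessory subunits, 11 had positive values (median -0.03). Without 0 dpa replicate 2, 1 of the 7 core and 1 of the 28 accessory genes had positive values (medians -0.28 and -0.39), and without replicate 1, 7 and 27 did (medians 0.60 and 0.35). This grouping was made after the values were seen, and the difference between the groups was not tested. Ndufv1, which binds NADH and the flavin, had 495 and 256 (0 dpa), 323 and 285 (6 dpa), and 514 and 502 (9 dpa), so that both libraries of 9 dpa lay above both of 0 dpa by a narrow margin. The log2 fold change at 9 against 0 dpa was 0.51 (standard error 0.37, limma adjusted p = 0.613), and did not meet the criteria. It was 0.99, and called, without 0 dpa replicate 1 and 0.04 without replicate 2. Ndufs1, the largest iron-sulphur subunit, had 518 and 262 (0 dpa), 348 and 336 (6 dpa), and 517 and 491 (9 dpa). In 0 dpa replicate 2 it lay below both libraries of 6 dpa, and the libraries of 0 and 9 dpa overlapped. The matrix arm as a whole (15 genes) had a median of -0.49 at 6 against 0 dpa and the membrane arm (18 genes) -0.55, both -0.17 without 0 dpa replicate 1 and -0.98 and -0.91 without replicate 2. The duplicates of the mitochondrial acyl carrier protein, ndufab1a and ndufab1b, are subunits of both arms. Their ratio of FPKM was 1.59 and 1.80 (0 dpa), 1.60 and 1.73 (6 dpa), and 1.92 and 2.11 (9 dpa), higher in both libraries of 9 dpa than in the other 4.

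Complex II oxidises succinate and is also an enzyme of the TCA cycle. Its flavoprotein sdha had 438 and 221 (0 dpa), 236 and 215 (6 dpa), and 374 and 385 (9 dpa). The iron-sulphur subunit sdhb had 729.5 and 317 (0 dpa), 331 and 316 (6 dpa), and 580.2 and 499 (9 dpa). In both genes the libraries of 9 dpa lay above those of 6 dpa, and 0 dpa replicate 2 was close to 6 dpa. Sdhc, a membrane anchor, had 615 and 413 (0 dpa), 321 and 328 (6 dpa), and 514 and 442 (9 dpa), with no overlap between 6 dpa and either of the other time points. The membrane anchor sdhd is present in duplicate, and RefSeq lists each of the symbols sdhda and sdhdb as a synonym of the other gene, so which duplicate a row of the table stands for is uncertain. The row named sdhdb had 194 and 148 (0 dpa), 105 and 74.4 (6 dpa), and 127 and 90.4 (9 dpa). Its log2 fold change at 6 against 0 dpa was -0.93 (standard error 0.33, limma adjusted p = 0.246), the largest negative value of any member in that comparison, and it met the 3 criteria, but not without 0 dpa replicate 1 (-0.74) or 6 dpa replicate 2 (-0.69). At 9 against 0 dpa it was -0.66, also without overlap but not called. The row named sdhda had 8.06 and 8.36 (0 dpa), 10.2 and 8.23 (6 dpa), and 9.03 and 9.69 (9 dpa), a range of 8.06 to 10.2 with no low level at 6 dpa. The ratio of sdhda to sdhdb was 0.0415 and 0.0566 (0 dpa), 0.0975 and 0.111 (6 dpa), and 0.0711 and 0.107 (9 dpa), higher in all 4 libraries of 6 and 9 dpa than in those of 0 dpa.

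Complex III passes electrons from ubiquinol to cytochrome c. All 8 of its genes in the table had positive values at 9 against 6 dpa with no overlap between libraries, and 7 had negative values at 6 against 0 dpa (6 without 0 dpa replicate 1 and 8 without replicate 2). With all libraries, none was called in any of the 3 comparisons by limma. At 6 against 0 dpa the median of the complex was -0.20 without 0 dpa replicate 1 and -0.96 without replicate 2. At 9 against 0 dpa it was 0.44 without replicate 1 and -0.42 without replicate 2. Uqcrb, the ubiquinone-binding protein, had 2287 and 1479 (0 dpa), 1124 and 1477 (6 dpa), and 2134 and 2061 (9 dpa). The core protein uqcrc1 had 936 and 532 (0 dpa), 486 and 405 (6 dpa), and 714 and 643 (9 dpa), and the Rieske iron-sulphur protein uqcrfs1 had 1246 and 537 (0 dpa), 593 and 453 (6 dpa), and 909 and 707 (9 dpa). In all 3 genes 0 dpa replicate 2 lay below both libraries of 9 dpa, and for uqcrfs1 it also lay below 6 dpa replicate 1. The gene that departed from them was uqcrc2a, 1 of the duplicates of the other core protein, with 135 and 74.0 (0 dpa), 77.9 and 133 (6 dpa), and 160.2 and 175 (9 dpa). It was highest at 9 dpa, and the libraries of 6 dpa lay within the range of those of 0 dpa. Uqcrc2b, its more abundant duplicate, had 549 and 263 (0 dpa), 336 and 276 (6 dpa), and 427 and 364 (9 dpa). The ratio of uqcrc2a to uqcrc2b was 0.247 and 0.281 (0 dpa), 0.231 and 0.480 (6 dpa), and 0.375 and 0.483 (9 dpa), higher in both libraries of 9 dpa than in those of 0 dpa, with the libraries of 6 dpa far apart.

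Complex IV, cytochrome c oxidase, held 5 of the 7 members called higher at 9 against 6 dpa, where its median was 0.71, the highest of the 5 complexes. All 5 lost the call when some library of 6 or 9 dpa was left out. Cox5b2, a zinc-binding subunit on the matrix side, had 1972 and 1003 (0 dpa), 952 and 814 (6 dpa), and 1870.0 and 1649 (9 dpa). Its log2 fold change at 9 against 6 dpa was 1.00 (standard error 0.37, limma adjusted p = 1.00), the largest positive value of any member, with the call lost without either library of 6 dpa (1.11 and 0.88) or either library of 9 dpa (0.91 and 1.09). Cox5ab, 1 of the duplicates of subunit 5a, had 719 and 414 (0 dpa), 386 and 389 (6 dpa), and 660.0 and 792 (9 dpa), with a log2 fold change of 0.90 (standard error 0.34, limma adjusted p = 1.00). Its call was lost without either library of 6 dpa (0.89 and 0.90) or either library of 9 dpa (1.03 and 0.77). Ndufa4, once assigned to complex I, had 1941 and 1259 (0 dpa), 1153 and 733 (6 dpa), and 2098 and 1572 (9 dpa), with 0.98 (standard error 0.36, limma adjusted p = 1.00), and lost the call without 6 dpa replicate 2 (0.65) or either library of 9 dpa (0.77 and 1.19). Cox7c, a small subunit, had 4589.5 and 3093 (0 dpa), 1944 and 2707 (6 dpa), and 3644 and 4031 (9 dpa), with 0.74 (standard error 0.32, limma adjusted p = 1.00), and lost the call without either library of 6 dpa (0.50 and 0.98) or either library of 9 dpa (0.81 and 0.67). In these 4 genes both libraries of 9 dpa lay above both of 6 dpa, and the libraries of 0 and 9 dpa overlapped.

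Subunit 6b, on the outer face of complex IV where cytochrome c binds, is in the table as the isoforms cox6b1 and cox6b2. Cox6b1, the common isoform in mammals, had 1024 and 959 (0 dpa), 1129 and 802 (6 dpa), and 1648 and 1809 (9 dpa). Both libraries of 9 dpa were above the other 4, while 0 and 6 dpa overlapped. It met the 3 criteria at 9 against 0 dpa with a log2 fold change of 0.80 (standard error 0.29, limma adjusted p = 0.322), as the only member to do so, and at 9 against 6 dpa with 0.86 (standard error 0.29, limma adjusted p = 1.00). The former call was lost without 6 dpa replicate 2 (0.80) or either library of 9 dpa (0.87 and 0.73), the latter without 6 dpa replicate 2 (0.61) or either library of 9 dpa (0.93 and 0.79). Cox6b2, a testis isoform in mammals, had 1590.5 and 749 (0 dpa), 671 and 584 (6 dpa), and 1021 and 703 (9 dpa), with a value at 9 against 0 dpa of -0.37 (standard error 0.41, limma adjusted p = 0.772), which was 0.18 without 0 dpa replicate 1 and -0.91, called lower, without replicate 2. The ratio of cox6b2 to cox6b1 was 1.55 and 0.781 (0 dpa), 0.595 and 0.728 (6 dpa), and 0.619 and 0.388 (9 dpa). It was lower in all 4 libraries of 6 and 9 dpa than in both of 0 dpa, although 0 dpa replicate 2 lay close to the highest of them. Between 6 and 9 dpa the ratio overlapped.

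Cox4i2, the isoform of subunit 4 that is linked to low oxygen in mammals, had values of the opposite sign to most of the complex at 6 against 0 and at 9 against 6 dpa, and of the same sign as 13 of the other 17 at 9 against 0 dpa. Its FPKM was 30.0 and 20.9 (0 dpa), 38.7 and 46.5 (6 dpa), and 43.9 and 34.5 (9 dpa), and all 4 libraries of 6 and 9 dpa lay above both of 0 dpa. Its log2 fold change at 6 against 0 dpa was 0.74 (standard error 0.30, limma adjusted p = 0.295), and it was the only member called higher in that comparison, with the call lost without 0 dpa replicate 2 (0.48), either library of 6 dpa (0.87 and 0.61) or either library of 9 dpa (0.74). At 9 against 0 dpa the value was 0.61 (standard error 0.30, limma adjusted p = 0.447), short of the criteria, but 0.87 and called without 0 dpa replicate 1, and 0.36 without replicate 2. The common isoform cox4i1 had 2579.8 and 1529 (0 dpa), 1553 and 1442 (6 dpa), and 2139.6 and 2183 (9 dpa), and the ratio of cox4i2 to cox4i1 was 0.0116 and 0.0137 (0 dpa), 0.0249 and 0.0322 (6 dpa), and 0.0205 and 0.0158 (9 dpa). The ratio separated the 3 time points without overlap, lowest at 0 dpa and highest at 6 dpa, as the only one of 14 ratios examined. Cox4i1 was the more abundant isoform throughout.

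The subunits with heart and muscle isoforms in mammals are 6a, 7a and 8. Cox6a2, the muscle isoform of 6a, had 5615 and 2643 (0 dpa), 2601 and 2526 (6 dpa), and 5097 and 3686 (9 dpa), against 327 and 436 (0 dpa), 419 and 247 (6 dpa), and 417 and 452 (9 dpa) for cox6a1. The muscle isoform was thus the higher one in every library, and cox6a1 showed no order of time points. The ratio of cox6a2 to cox6a1 overlapped between all time points, with 17.2 and 6.06 in the libraries of 0 dpa. Cox7a1, the muscle isoform of 7a, had 1419.7 and 643 (0 dpa), 528 and 607 (6 dpa), and 898 and 920.3 (9 dpa). Cox7a2a, the other isoform, had 497 and 524 (0 dpa), 243 and 315 (6 dpa), and 457 and 382 (9 dpa), and its log2 fold change at 6 against 0 dpa of -0.88 (standard error 0.30, limma adjusted p = 0.219) met the criteria, with the lowest limma adjusted p of the members in that comparison. This call was lost without 6 dpa replicate 1 (-0.69). The ratio of cox7a1 to cox7a2a overlapped between all time points as well. Cox8b, the muscle isoform of subunit 8, had 2369.6 and 1004 (0 dpa), 1115 and 1295 (6 dpa), and 2111 and 1985 (9 dpa), and the ratio of cox8b to cox8a was 2.40 and 1.63 (0 dpa), 2.03 and 2.40 (6 dpa), and 2.50 and 2.71 (9 dpa), highest in both libraries of 9 dpa. In the ratios cox6a2 over cox6a1, cox6b2 over cox6b1, cox7a1 over cox7a2a and cox8b over cox8a, 0 dpa replicate 2 was lower than 0 dpa replicate 1. The duplicates ndufa4l and ndufa4, and cox5aa and cox5ab, had ratios that overlapped between all time points (1.42 to 2.28 and 2.05 to 2.93). How the authors' quantification divided reads between similar copies is not given in the sources used here, so ratios of duplicates carry that uncertainty. With 2 libraries against 2, an exact permutation test cannot give a p-value below 0.333, and no test was run on the ratios. Among 14 ratios, some can separate time points through the spread between libraries alone.

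**Figure D4:**
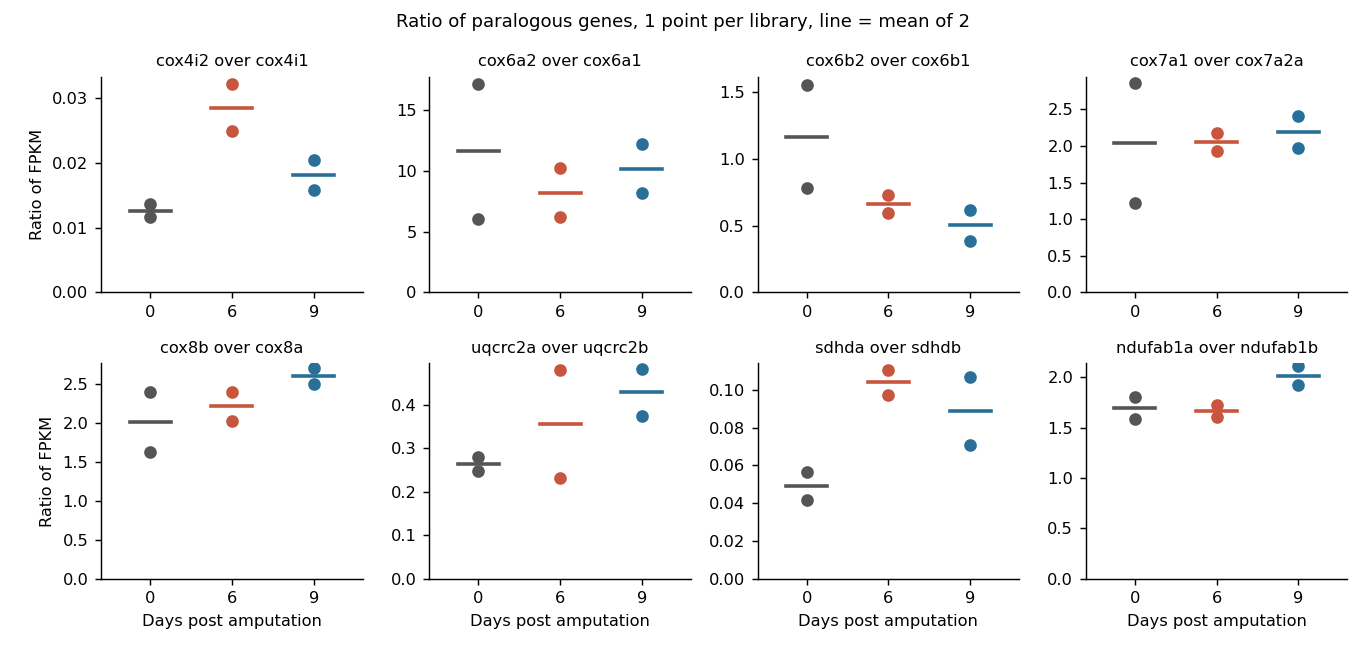
Ratio of FPKM of 8 of the 14 pairs of paralogous genes (vertical axis, from 0) by days post amputation. Each library is 1 point, and the mean of the 2 libraries is a line. Pairs not drawn include ndufa4l over ndufa4 and cox5aa over cox5ab, which overlap between all time points. The ratio of cox4i2 to cox4i1 has no overlap between the 3 time points, and those of cox6a2 to cox6a1 and cox7a1 to cox7a2a overlap between all of them.

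Complex V is built of a catalytic head, a peripheral stalk, a ring of c subunits and small membrane subunits. All 17 of its genes had negative values at 6 against 0 dpa (median -0.56) and positive values at 9 against 6 dpa (median 0.58), the latter with no overlap between libraries in any of them. Without 0 dpa replicate 1, 4 of the 17 had positive values at 6 against 0 dpa (median -0.09), and without replicate 2 all 17 were negative (median -0.96). The catalytic subunit atp5f1b had 4801 and 1648 (0 dpa), 3042 and 1989 (6 dpa), and 4397 and 3253 (9 dpa), and the alpha subunit atp5fa1 had 2853 and 1259 (0 dpa), 1909.8 and 1612 (6 dpa), and 2672 and 2420.1 (9 dpa). In both, 0 dpa replicate 2 was the lowest of all libraries, and the values at 6 against 0 dpa were -0.19 and -0.11, the closest to 0 in the complex. Without 0 dpa replicate 1 these values were 0.58 and 0.48, and without replicate 2 they were -0.96 and -0.70. Atp5pf, a small subunit of the peripheral stalk, had 393 and 296 (0 dpa), 150.4 and 248 (6 dpa), and 281 and 309 (9 dpa), with a log2 fold change at 6 against 0 dpa of -0.82 (standard error 0.35, limma adjusted p = 0.315). It lost the call without 0 dpa replicate 1 (-0.61), 6 dpa replicate 1 (-0.46) or either library of 9 dpa (-0.82). Atp5mea and atp5mf, small subunits of the membrane sector, were also called lower there. Atp5mea had 1193 and 926 (0 dpa), 583 and 670.4 (6 dpa), and 969 and 1169 (9 dpa), with -0.75 (standard error 0.29, limma adjusted p = 0.282) at 6 against 0 dpa and 0.77 (standard error 0.29, limma adjusted p = 1.00) at 9 against 6 dpa, as the only gene of complex V called in the latter. The call at 6 against 0 dpa was lost without 0 dpa replicate 1 (-0.57), either library of 6 dpa (-0.65 and -0.85) or either library of 9 dpa (-0.75), and that at 9 against 6 dpa without either library of 6 dpa (0.67 and 0.87) or either library of 9 dpa (0.90 and 0.63). Atp5mf had 651 and 435 (0 dpa), 315 and 322 (6 dpa), and 446 and 438 (9 dpa), with -0.74 (standard error 0.31, limma adjusted p = 0.311) at 6 against 0 dpa, and the call was lost without 0 dpa replicate 1 (-0.45), either library of 6 dpa (-0.72 and -0.75) or either library of 9 dpa (-0.74).

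The c ring is encoded by atp5mc1, atp5mc3a and atp5mc3b, of which atp5mc3b was the highest in every library, with 3963 and 2216 (0 dpa), 2147 and 2223 (6 dpa), and 3441 and 2844 (9 dpa). The share of atp5mc1 did not separate the time points, as its ratio to the sum of atp5mc3a and atp5mc3b ran from 0.460 to 0.635. The inhibitors atp5if1a and atp5if1b bind the head when the synthase would run in reverse. Atp5if1a had 686 and 547 (0 dpa), 381 and 425 (6 dpa), and 471 and 477 (9 dpa), and atp5if1b had 1176 and 697 (0 dpa), 571 and 652 (6 dpa), and 829 and 1005 (9 dpa). Their ratio was 0.583 and 0.785 (0 dpa), 0.667 and 0.652 (6 dpa), and 0.568 and 0.474 (9 dpa), lower in both libraries of 9 dpa than in the other 4. The duplicates of subunit e, atp5mea and atp5meb, had a ratio between 0.625 and 0.922.

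The assembly factors were expressed far below the subunits they serve. The 8 assembly factors and cox7a3 had a median log2 level between 4.66 and 5.35 over the libraries, against 8.74 to 9.75 for the structural subunits. Their median log2 fold changes were -0.35 at 6 against 0 dpa and 0.50 at 9 against 6 dpa, with the same signs as those of the subunits. The former was -0.11 without 0 dpa replicate 1 and -0.80 without replicate 2. Sdhaf3, which helps to mature the iron-sulphur subunit of complex II, had 21.8 and 17.7 (0 dpa), 13.4 and 11.3 (6 dpa), and 19.5 and 16.8 (9 dpa), and its log2 fold change of -0.63 (standard error 0.25, limma adjusted p = 0.282) at 6 against 0 dpa was the only one called among them, and not without 0 dpa replicate 1 (-0.49), either library of 6 dpa (-0.75 and -0.52) or either library of 9 dpa (-0.63). Cox7a3 had 651 and 385 (0 dpa), 306 and 297 (6 dpa), and 537 and 411 (9 dpa), lowest in the libraries of 6 dpa. Ndufaf7, a methyltransferase needed to assemble complex I, had 6.44 and 3.90 (0 dpa), 7.84 and 7.95 (6 dpa), and 6.20 and 8.19 (9 dpa), with both libraries of 6 dpa above those of 0 dpa but no call (log2 fold change 0.56). Ndufaf3, another assembly factor of complex I, had 140.0 and 33.2 (0 dpa), 72.0 and 86.6 (6 dpa), and 95.8 and 73.9 (9 dpa), and its libraries of 0 dpa were both the highest and the lowest of the 6. Its value at 6 against 0 dpa, 0.20 with both, was -0.82 without replicate 2 of 0 dpa.

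The members were compared with gene lists for the muscle itself and for related functions, described by counts and medians with no test of the lists. Of all genes, 7.51% were called lower at 6 against 0 dpa and 1.99% higher at 9 against 6 dpa. The 20 fitted genes of working myocardium had a median of -0.52 at 6 against 0 dpa (3 called lower, 0 higher) and 0.45 at 9 against 6 dpa (1 called higher, 0 lower), beside -0.55 and 0.56 for the members. Without 0 dpa replicate 1 its median at 6 against 0 dpa was 0.06, and without replicate 2 it was -0.93. The members then had -0.15 and -0.94, and all genes 0.08 and -0.11. In a median over genes on the log2 scale of FPKM + 1, the members stood at 9.48 and 8.78 (0 dpa), 8.60 and 8.61 (6 dpa), and 9.25 and 9.08 (9 dpa), and the myocardium list at 10.46 and 9.32 (0 dpa), 9.44 and 9.23 (6 dpa), and 9.98 and 9.53 (9 dpa). The members lay below the myocardium list by 0.45 to 0.98 in every library, and the differences at 0, 6 and 9 dpa overlapped. When each library was scaled to the same mean of the myocardium list, an alternative chosen after the data were seen, the members' median was -0.03 at 6 against 0 dpa, with 0 called lower and 2 higher, and 0.07 at 9 against 6 dpa, with 0 called. That scaling moves the median of all genes to 0.49 and -0.48 in these comparisons. In whole tissue, fewer cardiomyocytes in the sample and less of these RNAs per cardiomyocyte cannot be told apart.

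The lists of mitochondrial oxidation and of ribosomal proteins had medians of the same sign and smaller size at 6 against 0 and at 9 against 6 dpa. TCA cycle and fatty acid oxidation genes (32) had medians of -0.40 at 6 against 0 dpa and 0.45 at 9 against 6 dpa, where 32 of 32 had positive values and 1 was called higher. At 6 against 0 dpa this list had 0.08 without 0 dpa replicate 1 and -0.84 without replicate 2. Mitochondrial ribosomal proteins (74) had -0.44, with 10 called lower where 7.51% of all genes were. At 9 against 6 dpa they had 0.34, with 6 called higher where 1.99% of all genes were. Their median at 6 against 0 dpa was -0.17 without 0 dpa replicate 1 and -0.69 without replicate 2. Cytosolic ribosomal proteins (84) had -0.39 at 6 against 0 dpa with 2 called lower, but 0.13 at 9 against 6 dpa with 0 called, and at 9 against 0 dpa -0.26, where 79 of 84 had negative values. At 9 against 0 dpa it was -0.02 without 0 dpa replicate 1 and -0.49 without replicate 2, and at 6 against 0 dpa -0.13 and -0.63. Cyc1, the cytochrome of complex III, and cycsb, a cytochrome c that carries electrons to complex IV, had larger values at 9 against 6 dpa than the median of the members, 0.79 and 0.95, of which cycsb met the criteria, though not without either library of 6 dpa or without 9 dpa replicate 1 (0.62).

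Marker lists of other cell types were described in the same way. Their counts stand beside 7.86% of all genes called higher and 7.51% called lower at 6 against 0 dpa. At 9 against 6 dpa these shares were 1.99 and 1.42%. The median of macrophage and neutrophil genes was 0.33 at 6 against 0 dpa (1 of 23 called higher, 0 lower) and -0.80 at 9 against 6 dpa (1 of 22 called lower, 0 higher). The former was -1.04 without 0 dpa replicate 1 (22 of 23 negative) and 1.94 without replicate 2 (21 of 22 positive), so its sign depended on the 0 dpa library. Their summed FPKM was 1375 and 9300.0 (0 dpa), 4878 and 3904 (6 dpa), and 2438 and 2473 (9 dpa). Genes of epicardium and fibroblasts had 1.36 at 6 against 0 dpa (12 of 15 called higher, 1.57 without 0 dpa replicate 1 and 1.42 without replicate 2) and -0.15 at 9 against 6 dpa (0 called), and their summed FPKM was between 820.3 and 855 at 0 dpa and between 1834 and 3763 after it. Endothelial genes had -0.57 at 6 against 0 dpa (6 of 14 called lower, 0 higher) and 0.21 at 9 against 6 dpa (2 called higher, 0 lower). These are the signs of the members, but at 9 against 0 dpa the medians were -0.43 for endothelial genes and 0.05 for the members. That endothelial value was -0.24 without 0 dpa replicate 1 and -0.55 without replicate 2. Without 0 dpa replicate 1 the endothelial median at 6 against 0 dpa was -0.42, and without replicate 2 it was -0.82. Skin genes had 3.01 at 6 against 0 dpa (6 of 10 called higher, 0 lower, 3.08 without 0 dpa replicate 1 and 2.92 without replicate 2). At 9 against 6 dpa they had -2.21 (3 of 10 called lower, 0 higher). Their level differed between the replicates of 6 dpa by a median of 3.59. The haemoglobin genes in the table had a summed FPKM of 145635 and 93409 (0 dpa), 44807 and 35675 (6 dpa), and 130967 and 128816 (9 dpa), lower in both libraries of 6 dpa than in the other 4. Of these 13 genes, 6 were at 0 in some library. Log2 fold changes of single haemoglobin genes reached -15.6 at 6 against 0 dpa (6 negative, 3 positive). At 9 against 6 dpa they reached 16.2 (6 positive, 2 negative). The haemoglobin sum therefore does not describe a course common to these genes, and the reason for the values of 0 was not tested. Other red blood cell genes had 1.08 at 6 against 0 dpa (10 of 18 called higher, 0 lower) and -0.15 at 9 against 6 dpa (2 called higher, 0 lower), and the former was 1.54 without 0 dpa replicate 1 and 0.58 without replicate 2. In 0 dpa replicate 2, 92 of 95 members were lower than in replicate 1, with a median difference of -0.79, while at 6 and 9 dpa the median differences between replicates were -0.03 and -0.12. The part of the cell make-up in the differences between time points was not tested.

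**Figure D5:**
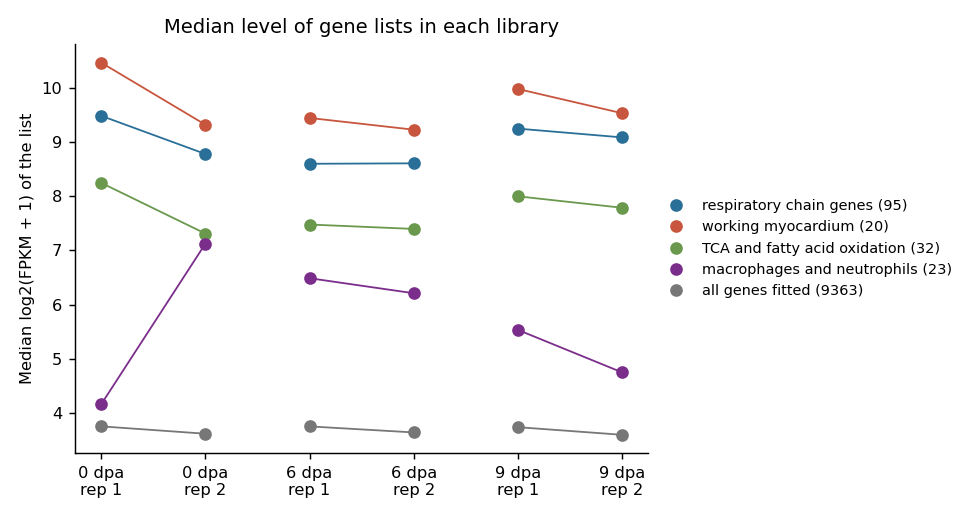
Median log2(FPKM + 1) of 5 sets of genes in each of the 6 libraries (horizontal axis), with the replicates of a time point joined by a line. The respiratory chain genes, the working myocardium and the TCA and fatty acid oxidation genes have a lower level in 0 dpa replicate 2 than in replicate 1 and higher levels at 9 than at 6 dpa, while macrophage and neutrophil genes stand at 4.16 and 7.12 in the libraries of 0 dpa.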

How the data were processed

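Per the labels, reads of the 6 heart RNA libraries were mapped by STAR (danRer10). The study names Cufflinks for the FPKM values, while the processing tools recorded for the series include Cuffdiff. Which of them gave the deposited values is not settled here. The authors deposited 1 FPKM value per gene symbol and library, with no other scaling stated. Versions and the gene annotation are not given in the sources used here. The values were fitted as log2(FPKM + 1) with limma 3.58.1 in R 4.3.3, with time point as the only term and an empirical Bayes trend (3 residual degrees of freedom and 4.66 prior ones, a median), in place of the count model of the study. P-values were adjusted over all genes tested in a comparison (Benjamini-Hochberg), with a threshold of 0.05. The fit was tested on simulated data whose noise was independent between genes and libraries. Shifts shared by many genes of a library, as between the libraries of 0 dpa, were not part of that simulation. Tables and figures were made with Python 3.11.15 and matplotlib 3.10.9.

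The members and the gene lists were chosen with earlier results of these data known. Genes named are, for each complex, the most abundant member, the 4 with the largest change called in each direction and comparison, isoform pairs, and ndufs1, ndufv1, sdha to sdhd, uqcrc1, uqcrfs1, atp5fa1, atp5f1b and esrra. Others (6 duplicate pairs, cox7c, atp5mf, sdhaf3, ndufa1, ndufs8a, ndufs8b, cox7a3, ndufaf3, ndufaf7 and genes outside the symbol rule) were named after their values were seen. A pair for cox5b was dropped because only cox5b2 is in the table, and ndufa4l is by RefSeq a duplicate of ndufa4. The alternatives tried were an FPKM minimum of 1 or none, a pseudocount of 0.1, scaling by median ratios, removal of haemoglobin genes with rescaling, fits of the compared groups only, a replicate term, no trend, leaving out each library (a lone library is then assumed to vary like the others), and, added later, scaling to the myocardium list. A gene of the naming rule is not reported here. No sequences are shown.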

Additional observations from a re-analysis of the deposited data

How the results depend on the processing

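Leaving out 1 library at a time moved the median log2 fold change of the members from -0.94 to -0.15 at 6 against 0 dpa, from -0.36 to 0.40 at 9 against 0 dpa and from 0.52 to 0.63 at 9 against 6 dpa. The members called higher ran from 0 to 3, from 0 to 24 and from 0 to 39 in these comparisons, and those called lower from 1 to 85, from 0 to 7 and at 0. Among the other settings, the members called lower at 6 against 0 dpa numbered 30 with median-ratio scaling, 1 when rescaled without haemoglobin, 2 in the fit of the compared groups only, and 0 with working-myocardium scaling, and those called higher numbered 2, 0 and 2 in the last 3. At 9 against 0 dpa, 2, 6 and 0 members were called higher with median-ratio scaling, without haemoglobin and in the compared groups only, and 1 was called lower with median-ratio scaling. At 9 against 6 dpa, 28 members were called higher with median-ratio scaling, 7 when rescaled without haemoglobin, 39 in the compared groups only and 0 with working-myocardium scaling. Shares of all genes called under these settings are not given here. Rescaling without haemoglobin moved the members' median at 6 against 0 dpa to -0.22 and that of all genes to 0.31, a difference of -0.53, against -0.55 as deposited. With working-myocardium scaling the medians were -0.031 at 6 against 0 dpa and 0.071 at 9 against 6 dpa, and the differences from all genes were -0.52 and 0.55. The cause of these shifts was not tested. The replicate numbers were not taken to pair the samples. The differences between replicates 2 and 1 correlated across genes by -0.08, 0.09 and 0.005 between time points, which cannot exclude a pairing. With a replicate block 13 members were called lower at 6 against 0 dpa and 1 at 9 against 0 dpa, again without the shares of all genes. For 58 named genes in 3 comparisons, 52 of 1566 values under settings other than leaving out a library lost the call, 64 gained one and 0 called values turned in direction. Without replicate 2 of 0 dpa, ndufaf3 turned to called lower, with -0.82 at 6 and -0.73 at 9 against 0 dpa, while without replicate 1 the values were 1.23 and 1.32. The study reports the mapped reads of each library, but the reads behind a single value are not known. The 2 libraries per time point limit every test.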

Other observations

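A list of genes that regulate the number and content of mitochondria also held genes of the hypoxia pathway (hif1aa, hif1ab, hif1al2, epas1b and egln3). The list was expressed far below the subunits, and 14 of its genes could be tested at 6 against 0 dpa. The criteria were met by 1 of them as higher (twnk) and 3 as lower (esrra, egln3 and tfb2m), where 7.86 and 7.51% of all genes were. The median was -0.33 (0.006 without 0 dpa replicate 1 and -0.68 without replicate 2). Counts and median include the hypoxia genes. Twnk, the helicase that replicates mitochondrial DNA, had FPKM values of 3.02 and 2.21 (0 dpa), 8.12 and 7.18 (6 dpa), and 6.45 and 7.76 (9 dpa), and its log2 fold changes were 1.27 (standard error 0.27, limma adjusted p = 0.0854) at 6 against 0 dpa and 1.17 (standard error 0.27, limma adjusted p = 0.154) at 9 against 0 dpa. All 4 libraries of 6 and 9 dpa lay above both of 0 dpa, the opposite direction to the subunit genes at 6 dpa. Tfam, which packages mitochondrial DNA, had 18.5 and 17.3 (0 dpa), 25.1 and 19.4 (6 dpa), and 26.4 and 23.9 (9 dpa) and was not called. Esrra, a nuclear receptor that binds promoters of respiratory genes in mammals, had 29.3 and 37.7 (0 dpa), 19.6 and 14.7 (6 dpa), and 26.7 and 31.6 (9 dpa). Both libraries of 6 dpa lay below the other 4, with log2 fold changes of -0.93 (standard error 0.28, limma adjusted p = 0.175) at 6 against 0 dpa and 0.74 (standard error 0.28, limma adjusted p = 1.00) at 9 against 6 dpa, both of which met the criteria. The former was lost without 6 dpa replicate 2 (-0.73) and the latter without 6 dpa replicate 2 (0.54) or either library of 9 dpa (0.86 and 0.62). Unlike 92 of 95 members, esrra was higher in replicate 2 of 0 dpa than in replicate 1. Egln3, a prolyl hydroxylase that marks hypoxia-inducible factors for degradation, had 36.0 and 35.9 (0 dpa), 12.9 and 5.54 (6 dpa), and 42.7 and 14.1 (9 dpa), with -1.96 (standard error 0.53, limma adjusted p = 0.141) at 6 against 0 dpa.

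Of 35 assembly factors outside the symbol rule, 7 were called lower and 1 higher at 6 against 0 dpa, where 7.51 and 7.86% of all genes were. Their median was -0.44 (-0.22 without 0 dpa replicate 1 and -0.87 without replicate 2). Ecsit, a complex I assembly factor, had 26.2 and 19.5 (0 dpa), 8.47 and 9.27 (6 dpa), and 15.1 and 13.05 (9 dpa), the lowest value of that list at 6 against 0 dpa with -1.26 (standard error 0.25, limma adjusted p = 0.0754). Cox17, the copper chaperone of complex IV, had 549.6 and 432 (0 dpa), 218 and 354 (6 dpa), and 482 and 436 (9 dpa), called lower at 6 against 0 dpa but not without 0 dpa replicate 1 (-0.64), 6 dpa replicate 1 (-0.46) or either library of 9 dpa (-0.81). Among the carriers that serve ATP synthase, slc25a4, an ADP/ATP carrier, had 70.0 and 40.8 (0 dpa), 15.3 and 14.4 (6 dpa), and 9.59 and 1.73 (9 dpa), called lower in all 3 comparisons, with -3.34 (standard error 0.58, limma adjusted p = 0.0778) at 9 against 0 dpa. Its call at 6 against 0 dpa was lost without 0 dpa replicate 1 (-1.40) or either library of 6 dpa (-1.82 and -1.74), and that at 9 against 6 dpa without either library of 6 dpa (-1.52 and -1.60) or 9 dpa replicate 2 (-0.58). Slc25a5, the dominant carrier gene, had 30424 and 13298 (0 dpa), 12632 and 14732 (6 dpa), and 21336 and 14262 (9 dpa) and was not called. The cause of these differences was not tested.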
